A study of Mus musculus with 16 samples.

Results

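The genes described here are 8 genes by which the capillary endothelium handles circulating fat, Cd36, Lpl, Fabp4, Fabp5, Pparg, Angptl4, Scarb1 and Vldlr. They were taken by name from the 54532 genes of each table, by their role in fatty acid uptake and with no threshold on a measured value. RNA-seq was performed in bulk on mouse pulmonary ECs, isolated from digested lung with magnetic beads that first removed cells carrying CD45 and then held cells carrying CD31. The saline group (n = 4) and the LPS group (n = 6) were WT male C57/BL6J mice of 8 weeks, given saline or 10 mg/kg LPS into the trachea. The second experiment held Fgfr1 loxP/loxP mice (n = 3), named wt in the labels, and Fgfr1 iΔEC/iΔEC mice (n = 3), named cko, in which a VE-cadherin promoter drives a Cre that tamoxifen activates in ECs. Littermates of both genotypes received tamoxifen, carried the floxed Fgfr1 alleles and were given 2 mg/kg LPS, so this experiment has no saline arm. RNA was taken 24 h after instillation in every group. The labels name each library as a separate sample of its group and give no further source for it, so p-values measure the spread between these libraries.

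Tissues that burn or store fat take up fatty acids from the blood across their capillary endothelium. Lipoprotein lipase, held on the luminal surface by GPIHBP1, frees fatty acids from triglyceride-rich lipoproteins, and ANGPTL4 inhibits that lipase. CD36 brings fatty acids into the endothelial cell, FABP4 and FABP5 carry them through its cytosol, and PPARγ is the nuclear receptor that turns on several of these genes. Lpl, Cd36, Fabp4, Fabp5, Pparg and Angptl4 are also well known in macrophages, and Fabp4, Lpl and Pparg in adipocytes.

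All 8 genes are protein coding and lie on GRCm38 as the tables give it. Cd36 is at chr5:17781690-17888801, Scarb1 at chr5:125277087-125341094, Fabp4 at chr3:10204088-10208576 and Angptl4 at chr17:33773750-33781575, each on the minus strand. Lpl is at chr8:68880491-68907448, Fabp5 at chr3:10012548-10016607, Pparg at chr6:115360951-115490399 and Vldlr at chr19:27216484-27254231, each on the plus strand. Fabp4 and Fabp5 thus lie in the same region of chromosome 3. In GENCODE M21 an antisense gene, Gm44079, overlaps Pparg and an unclassified gene, Gm42633, overlaps Scarb1 on the same strand. They held at most 3 and 7 reads in any library, and the Fabp5 copies Fabp5l2 and AC109261.2 held at most 1 and 2 reads. How reads on such copies were counted, and whether strand was used, is not given in the sources used here.

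The RefSeq promoter table of GRCm38.p6 holds windows for 3 of the 8 genes, Cd36, Vldlr and Pparg. The bases before a start site are shown for the 2 genes of the 8 that fell with LPS and for Pparg, which rose. The Cd36 and Pparg runs lie within the span of their gene, and values per gene do not show which start these cells used. Each run is 250 bases, read 5′ to 3′ on the gene's strand, ends at the base before the start site and overlaps no exon of GENCODE M21. Capitals mark AGGTCA, the half-site of nuclear receptors such as PPARγ, and CCAAT, the CCAAT box, on either strand.
Cd36, chr5:17835897-17836146, minus strand: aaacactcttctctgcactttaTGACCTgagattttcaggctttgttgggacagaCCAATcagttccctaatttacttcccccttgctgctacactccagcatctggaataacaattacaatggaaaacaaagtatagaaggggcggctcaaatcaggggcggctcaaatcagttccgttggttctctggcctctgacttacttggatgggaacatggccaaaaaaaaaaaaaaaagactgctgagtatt
Vldlr, chr19:27216234-27216483, plus strand: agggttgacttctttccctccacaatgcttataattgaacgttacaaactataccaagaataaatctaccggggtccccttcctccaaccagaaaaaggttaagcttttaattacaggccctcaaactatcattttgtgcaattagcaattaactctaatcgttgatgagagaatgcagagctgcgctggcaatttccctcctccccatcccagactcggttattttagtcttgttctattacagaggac
Pparg, chr6:115421816-115422065, plus strand: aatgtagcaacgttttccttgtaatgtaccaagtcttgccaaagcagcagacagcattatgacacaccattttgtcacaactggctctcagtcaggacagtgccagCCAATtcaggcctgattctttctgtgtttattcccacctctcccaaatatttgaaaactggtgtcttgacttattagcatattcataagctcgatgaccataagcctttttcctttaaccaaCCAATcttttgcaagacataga

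The half-site AGGTCA was found once in the Cd36 run, as TGACCT on the opposite strand, and in neither of the other printed runs, while CCAAT stood once in the Cd36 run, in 2 places in the Pparg run and nowhere in the Vldlr run. Both strands were searched, and AGGTCA also lies within the direct repeat named below. Windows of 300 bases, which add the 50 bases after the start, held AGGTCA on either strand in 16.3% of 32851 promoters and CCAAT in 37.4%. The direct repeat to which PPARγ and RXR bind together, AGGTCA, any base and AGGTCA again, was in 0.0396% of all windows and in none of the 6 windows of these 3 genes. GC content of the printed runs was 43.2% for Cd36, 41.6% for Vldlr and 40.8% for Pparg, against a median of 52.4% over all promoters. Other starts of these genes follow 250 bases with 82.4% and 63.6% GC for Pparg and 66.4% GC for Vldlr, which overlap exons of their own gene and are not shown. AGGTCA was found in both of these other Pparg windows, and CCAAT, on the opposite strand, in the second of them and in the other Vldlr window. Such matches describe the letters only.

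The values are FPKM, that is reads per kb of gene length scaled per library, so levels between genes depend on the length used. That length was 4489 bases for Fabp4, its whole span on the genome, and 3567 bases for Fabp5. A length beyond that of the transcript lowers FPKM, so ranks between genes hold only with this limit. Reads on genes ranged from 13478726 in saline 1 to 19043015 in LPS 4. Saline 1 stood apart from the rest of its group in ways the labels do not give. Its summed FPKM over 8 neutrophil genes was 1380 against 69.5 to 307 in the other saline libraries, and that over 6 leukocyte genes was 387 against 98.5 to 144. Among the 8 uptake genes it held the highest saline value for Lpl, Fabp4, Fabp5, Pparg, Angptl4 and Scarb1. Results of the 8 genes that rest on it are given with and without it.

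Beside these libraries, the markers of the sorted cells and of the depleted ones moved with LPS. Of 10 endothelial genes, led by Cldn5, 6 fell, none rose and 4 did not pass the test, with a median log2 fold change of -0.71. Their summed FPKM was 5429, 3276, 4066 and 3391 in saline 1 to 4, and 1434, 2828 and 3382 at the lowest, median and highest of the LPS group. Cdh5, VE-cadherin, fell from 710 to 394 FPKM by group mean (log2 fold change -0.88 ± 0.22), and with scaling on the endothelial list it was at -0.16 and did not pass. Pecam1, which encodes CD31, was at 400.3 and 358 FPKM (-0.17 ± 0.21) and did not pass, while scaling on the endothelial list gave 0.56 (adjusted p = 0.015) and quantile normalization -0.74 (adjusted p = 0.0096). Ptprc, which encodes CD45, was at 3.53 to 10.99 FPKM in the saline group and 22.1 to 52.7 FPKM in the LPS group and rose by 2.19 ± 0.28 on the log2 scale. All 6 leukocyte genes rose, with a median log2 fold change of 3.20. So did the 8 tested of 9 monocyte and macrophage genes, by a median of 4.59. The summed FPKM of the monocyte and macrophage list, led by Lyz2, was 1225, 481, 742 and 379 in saline 1 to 4 and ran from 2284 to 5229 in the LPS group. Only Ms4a7 of that list was at 0 reads in any library, in saline 1 and saline 3. Of 11 alveolar macrophage genes 4 rose, Marco among them, and 3 fell, Siglecf among them, with a median log2 fold change of -0.05. The summed FPKM of these genes, led by Chil3, ran from 87.5 to 185 in the saline group and from 542 to 1200 in the LPS group. The 7 adipocyte genes, led by Thrsp, summed to 2.61 to 6.10 FPKM in the saline group and 0.97 to 2.27 FPKM in the LPS group, with Adipoq at 0 reads in all saline libraries and at most 1 read in an LPS library. Of 8 neutrophil genes, led by S100a9, 7 rose. Other cells moved as well. Of 7 fibroblast genes 6 were lower (median log2 fold change -0.80), as were 3 of 6 mural and 2 of 5 tested lymphocyte genes. Of 8 alveolar type 2 epithelial genes 3 were lower and 1 higher. Of the tested erythroid and platelet genes 3 of 4 each were higher. With scaling on the endothelial list, 2 fibroblast and 1 alveolar type 2 genes were lower, and 1 mural and 3 alveolar type 2 genes higher. No mural or lymphocyte gene was lower there, where 48.5% of all genes were higher and 5.22% lower. Without saline 1 no lymphocyte gene was called. Summed FPKM of the alveolar type 2 list, led by Sftpc, had a median of 1604 in the saline group and 725 in the LPS group. In bulk RNA fewer cells of a type and less RNA per cell cannot be told apart, and the part of these cells in each result below was not tested. In LPS over saline, limma called 29.5% of 14893 genes higher and 23.7% lower at an adjusted p at or under 0.05, so a call alone is common in this comparison. With a log2 fold change of at least 1 in size as well, these shares were 11.9% and 6.79%. Of the called genes 55.5% were higher, which became 42.6% with scaling on total reads, 45.4% with quantile normalization and 90.3% with scaling on the endothelial list.

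**Figure D1:**
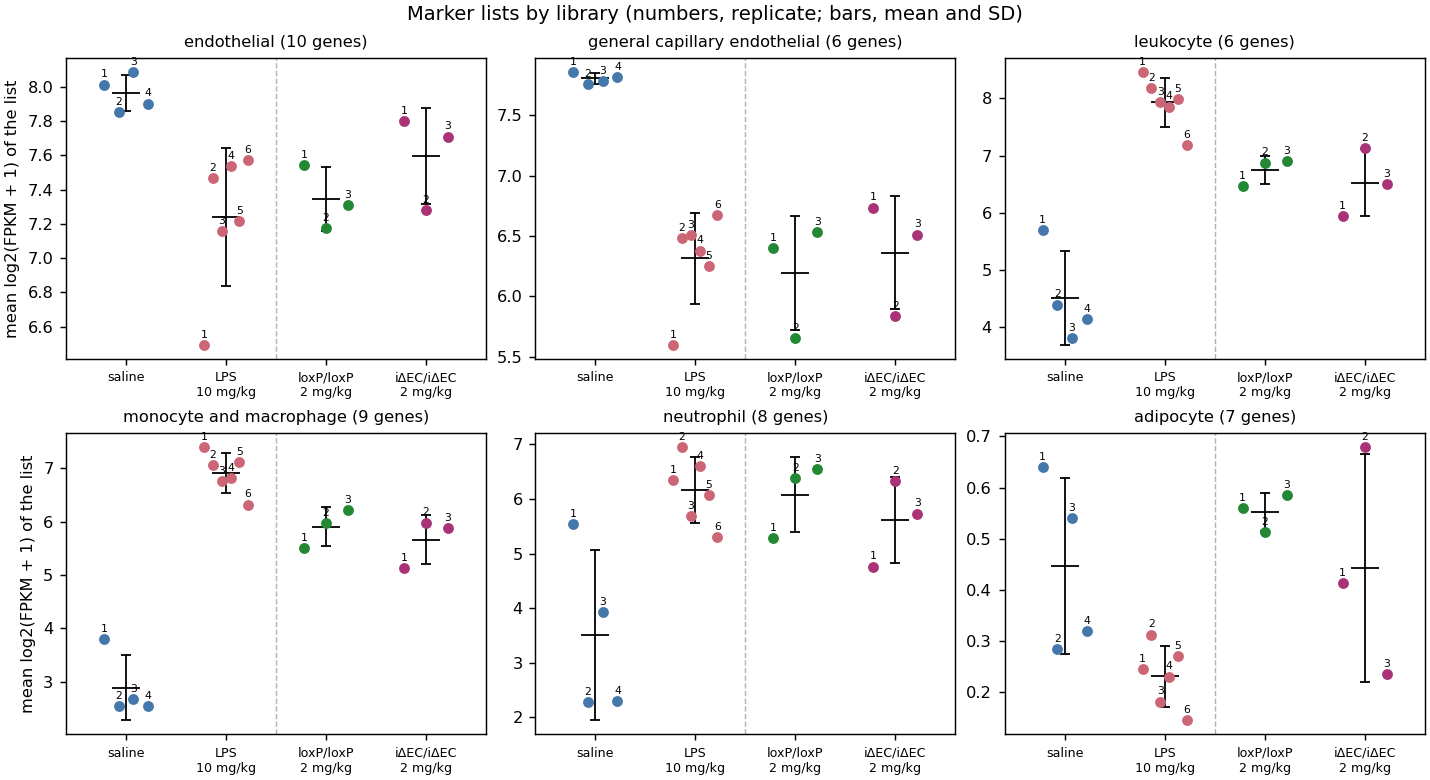
Mean log2(FPKM + 1) of 6 marker lists in each library, with the mean and SD of each group; numbers are replicates and the dashed line separates the tables, which were normalized separately. The endothelial and general capillary lists were lower and the leukocyte and macrophage lists higher in all 6 LPS libraries than in all 4 saline libraries, and saline 1 was the highest saline library in the leukocyte, macrophage, neutrophil and adipocyte lists.

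Of the 8 uptake genes, 4 rose in the LPS group (Lpl, Fabp5, Pparg and Angptl4), 2 fell (Cd36 and Vldlr) and 2 did not pass the test (Fabp4 and Scarb1). The background for these counts is the 29.5% higher and 23.7% lower of all genes. Groups that did not overlap were found for 3 of the 8 higher and 2 lower, against 22.7% and 16.7% of all genes. The median log2 fold change of the 8 was 0.80, and that of all tested genes was 0.01. Without saline 1, where 31.2% of all genes were higher and 25.5% lower, the counts were 5 higher, 2 lower and 1 not passed, since Fabp4 joined the genes that rose. With each library scaled on the 10 endothelial genes instead, the median of all genes moved to 0.57 and the median of the 8 to 1.35, and 4 were called higher and 1 lower, where 48.5% of all genes were higher and 5.22% lower. On total reads 4 of the 8 were higher, 3 lower and 1 did not pass, since Scarb1 joined the genes that fell. There 23.1% of all genes were higher and 31.2% lower. The shares of these 2 scalings are the background for each count given below under them.

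**Figure D2:**
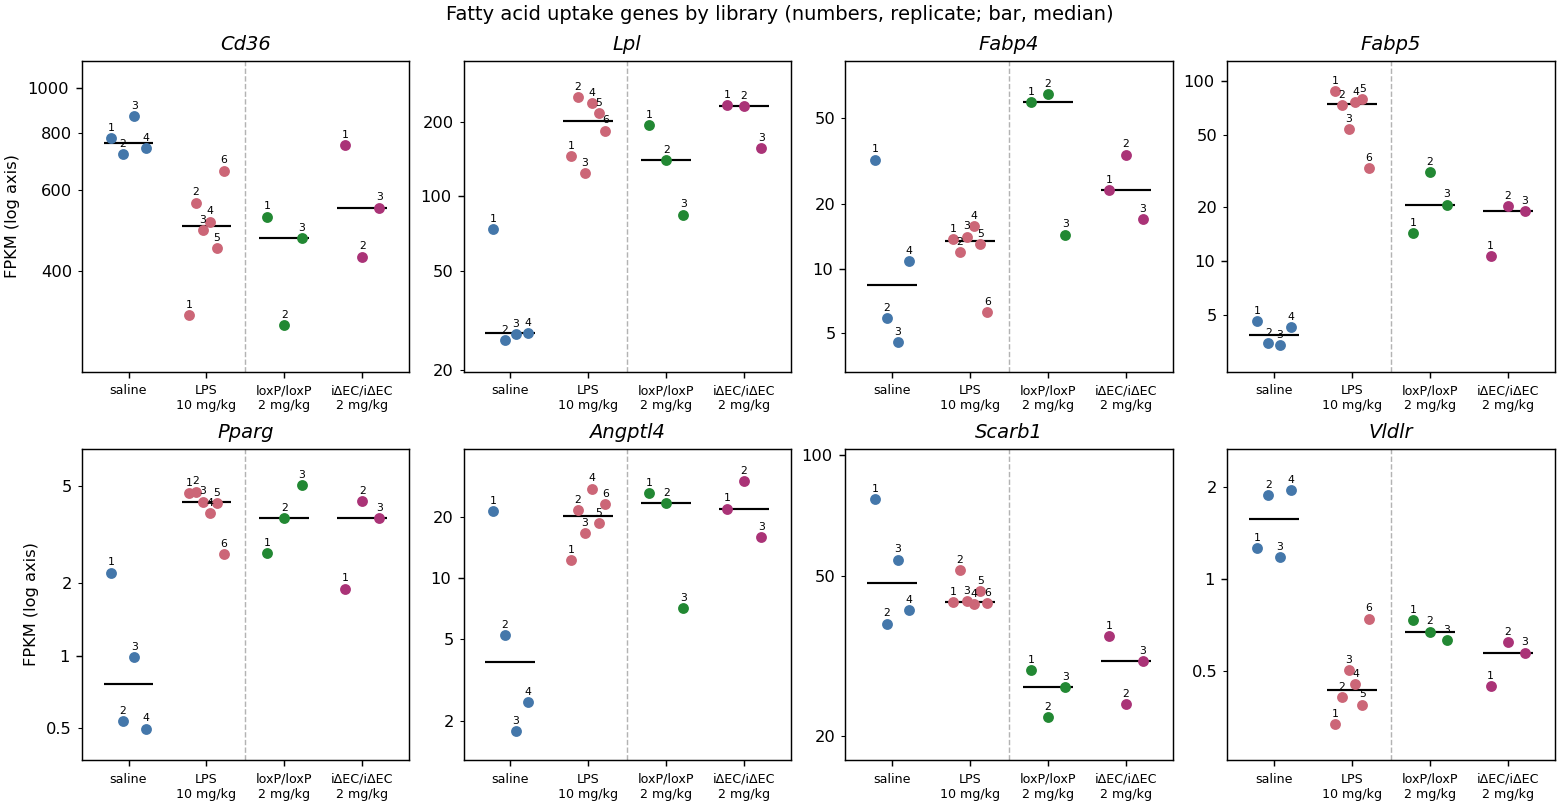
FPKM of the 8 genes in every library on log axes, with bars at the group medians; numbers are replicates and the dashed line separates the separately normalized tables. All LPS libraries lie above all saline libraries for Lpl, Fabp5 and Pparg and below them for Cd36 and Vldlr, though Cd36 turned to a log2 fold change of 0.06 with scaling on the endothelial list.

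Lpl, the lipase itself, was at 73.8, 26.3, 27.9 and 28.1 FPKM in saline 1 to 4. In the LPS group it was at 124 FPKM at the lowest, 201 at the median and 251 at the highest. Every LPS library was above every saline library, and saline 1 was far above the other saline libraries. Lpl rose by 2.38 ± 0.31 on the log2 scale (SE, limma adjusted p = 0.000103, 4 and 6 libraries), and the ratio of the group means was 4.95. Without saline 1 the log2 fold change was 2.73. Lpl rose in every setting tried, by 1.86 to 3.42.

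Angptl4, which encodes the secreted inhibitor of the lipase, was at 21.2, 5.27, 1.77 and 2.47 FPKM in saline 1 to 4 and at 12.2, 20.05 and 27.5 FPKM at the lowest, median and highest of the LPS group. The groups overlapped through saline 1 alone, which lay above 3 of the 6 LPS libraries. Its rise was 1.75 ± 0.49 on the log2 scale (SE, limma adjusted p = 0.0107), and without saline 1 it was 2.37 ± 0.28 with an adjusted p of 9.63e-05. Lpl and its inhibitor thus both rose. Their log2 ratio within a library, Angptl4 to Lpl, which no scaling of the library can change, was -2.90 ± 1.01 (SD) in the saline group and -3.28 ± 0.31 in the LPS group. The difference of -0.38 was within the spread of the saline libraries (exact two-sided permutation p = 0.371, adjusted 0.743 over 4 such ratios). It was -0.011 without saline 1 (exact permutation p = 0.905) and -0.74 without saline 3 (exact permutation p = 0.0952).

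Gpihbp1, whose product carries the lipase across capillary endothelium to its lumen, was at 379, 171, 210 and 191 FPKM in saline 1 to 4. In the LPS group it was at 79.7, 148 and 237 FPKM at the lowest, median and highest. The groups overlapped, and the log2 fold change of -0.62 ± 0.30 did not pass (limma adjusted p = 0.104). Without saline 1 it was -0.37. Scaling on total reads gave -0.82 with an adjusted p of 0.021 and quantile normalization -1.23 with an adjusted p of 0.00097, and scaling on the endothelial list turned it to 0.10. A rise of Gpihbp1 like that of Lpl was seen under none of these settings.

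Of 16 genes that act with the lipase, 10 passed the filter on low values, and 2 of these rose, 3 fell and 5 did not pass, against 29.5% and 23.7% of all genes. The balance turned with the scaling, with 1 higher and 5 lower on total reads and 5 higher and 1 lower on the endothelial list. Furin, a protease that cleaves and inactivates lipases, rose from 15.0 to 36.8 FPKM by group mean (log2 fold change 1.26 ± 0.19). Lipg, endothelial lipase, rose from 8.25 to 14.4 FPKM (0.79 ± 0.25), and did not pass with total reads (0.61, adjusted p = 0.0538) or quantile normalization (0.62, adjusted p = 0.0613). Pltp, which moves phospholipid between lipoproteins, fell from 385 to 186 FPKM (-1.07 ± 0.19, or -0.34 and not passed with scaling on the endothelial list), and Pcsk5, another protease of the furin family, fell by 1.44 on the log2 scale. Angptl8, a partner of other lipase inhibitors, was low, with 29 to 60 reads in the saline group and 3 to 30 in the LPS group, and fell by 0.96 on the log2 scale, or was at -0.55 and did not pass with scaling on the endothelial list. Apoc2, the cofactor of the lipase, named for that role after its values were seen, had 0 reads in the saline libraries and at most 4 in the LPS group, which is near the floor, and it was not tested.

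Cd36, the fatty acid translocase, was the most abundant of the 8 genes in all groups. It was at 779, 718, 870 and 739 FPKM in saline 1 to 4 and at 320, 501 and 661 FPKM at the lowest, median and highest of the LPS group. Saline libraries were all above the LPS libraries, the nearest being saline 2 at 718 and LPS 6 at 661 FPKM. Its fall was -0.67 ± 0.21 on the log2 scale (SE, limma adjusted p = 0.0218), and scaling on the endothelial list turned it to 0.06 with an adjusted p of 0.774. On that scale Cd36 ran from 556 to 589 in the saline group and from 509 to 661 in the LPS group, so it fell in the LPS group by about as much as the endothelial list did. Without saline 3 the adjusted p was 0.0657 at a log2 fold change of -0.61.

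Scarb1 encodes SR-BI, the receptor that takes up cholesterol from HDL and moves LDL across endothelium. It was at 77.7, 38.0, 54.9 and 41.0 FPKM in saline 1 to 4 and at 42.5, 43.1 and 51.6 FPKM at the lowest, median and highest of the LPS group. The groups overlapped, with saline 1 and saline 3 above all LPS libraries and saline 2 and saline 4 below them. At -0.18 ± 0.18 on the log2 scale Scarb1 did not pass (limma adjusted p = 0.417), and was 0.02 without saline 1. It passed as lower on total reads (-0.38, limma adjusted p = 0.0415) and after quantile normalization (-0.64, limma adjusted p = 0.0025). With scaling on the endothelial list it was 0.53 and did not pass, and without saline 1 as well it passed as higher (0.72, limma adjusted p = 0.0285). No direction can be given for Scarb1 from these libraries.

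Vldlr, the receptor for very low density lipoprotein, was low in all groups. It was at 1.26, 1.88, 1.17 and 1.94 FPKM in saline 1 to 4, from 168 to 418 reads, and at 0.335, 0.431 and 0.741 FPKM at the lowest, median and highest of the LPS group, from 62 to 142 reads. The groups did not overlap. Its log2 fold change was -0.79 ± 0.13 (SE, limma adjusted p = 0.000606) on the log2(FPKM + 1) scale, which understates the change of a gene this low. The ratio of the group means was 0.301, that is 3.32 times lower in the LPS group. Vldlr fell in every scaling tried, by 0.46 on the log2 scale with scaling on the endothelial list.

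Of 21 other lipoprotein and scavenger receptor genes, 17 passed the filter, and 8 rose, 5 fell and 4 did not pass (background 29.5% and 23.7%), or 11 higher and 0 lower with scaling on the endothelial list, where the background was 48.5% and 5.22%. On the log2(FPKM + 1) scale, those that rose most were scavenger receptors known from macrophages. They were Msr1 (0.42 to 30.1 FPKM, log2 fold change 4.42 ± 0.27), Cd68 (7.03 to 132 FPKM, 4.06 ± 0.24) and Marco (2.29 to 44.3 FPKM, 4.00 ± 0.41). That scale understates the change of a gene as low as Lrp8, a lipoprotein receptor of the same list. Lrp8 had 0 to 19 reads in the saline group and 142 to 483 reads in the LPS group. Mylip, a ubiquitin ligase that marks the Vldlr protein for destruction, fell from 31.7 to 14.5 FPKM (-1.06 ± 0.13), and did not pass with scaling on the endothelial list (-0.36). Scarf2 and Scarf1, of the scavenger receptor class F, fell by 0.94 and 0.57 on the log2 scale, and with scaling on the endothelial list neither passed and Scarf1 turned to 0.13.

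Of the pair of cytosolic carriers, Fabp5 rose in every setting, and Fabp4 passed, as higher, only where saline 1 was left out. Fabp5 was at 4.60, 3.47, 3.39 and 4.27 FPKM in saline 1 to 4, from 216 to 300 reads, and at 32.7, 75.1 and 88.3 FPKM at the lowest, median and highest of the LPS group. Its saline libraries lay close together, and the lowest LPS library, LPS 6, was far above them all. Fabp5 had a ratio of group means of 17.2 and a log2 fold change of 3.73 ± 0.25 (SE, limma adjusted p = 1.35e-06), and it rose in every setting tried, by 3.52 to 4.41 on the log2 scale.

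Fabp4, which mature adipocytes and capillary ECs express strongly, was at 32.2, 5.89, 4.54 and 10.9 FPKM in saline 1 to 4 and at 6.30, 13.4 and 15.7 FPKM at the lowest, median and highest of the LPS group. Saline 1 lay above all LPS libraries, and saline 2, 3 and 4 lay below all of them but LPS 6, which saline 4 exceeded. A log2 fold change of 0.24 ± 0.43 did not pass (limma adjusted p = 0.661). Without saline 1 it was 0.77 with an adjusted p of 0.0437, and without saline 3 it was -0.10 with an adjusted p of 0.865.

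The log2 ratio of Fabp5 to Fabp4 within a library was -2.81, -0.76, -0.42 and -1.35 in saline 1 to 4, and 1.94 to 2.68 in the LPS group. By FPKM, Fabp4 was thus the more abundant of the pair in all saline libraries and Fabp5 in all LPS libraries. The means were -1.33 ± 1.05 (SD, n = 4) and 2.42 ± 0.28 (SD, n = 6), a difference of 3.75 (exact two-sided permutation p = 0.00952, adjusted 0.0381). Without saline 1 it was 3.26 (exact permutation p = 0.0238). With any single library left out it was 3.26 to 4.06, with exact permutation p of 0.0159 to 0.0238, not adjusted over the ratios. In the mice given 2 mg/kg LPS, the ratio was -2.06, -1.05 and 0.51 in the Fgfr1 loxP/loxP libraries and -1.13, -0.75 and 0.15 in the Fgfr1 iΔEC/iΔEC libraries, all below the LPS group of the first experiment. Dose, genotype and experiment differ together there, so these values are set side by side and were not compared by a test.

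**Figure D3:**
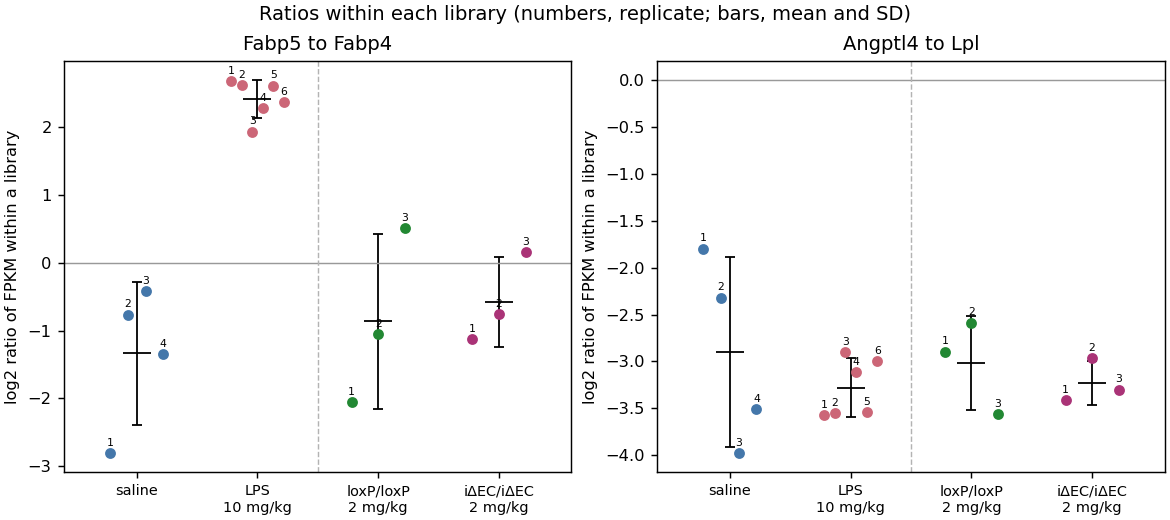
Log2 ratio of FPKM within each library for Fabp5 to Fabp4 and for Angptl4 to Lpl, with the mean and SD of each group; numbers are replicates and the dashed line separates the experiments. The Fabp5 to Fabp4 ratio is above 0 in all 6 LPS libraries and below 0 in all 4 saline libraries, while the Angptl4 to Lpl ratio is below 0 in all 16 libraries.

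Of 22 further genes of fatty acid transport and activation, 16 passed the filter, and 9 rose, 5 fell and 2 did not pass, against 29.5% higher and 23.7% lower of all genes. On total reads 8 were higher and 5 lower, and on the endothelial list 9 and 3. Dbi, the acyl-CoA binding protein, rose from 23.3 to 69.0 FPKM (log2 fold change 1.5 ± 0.20), and Acsl5, an acyl-CoA synthetase, from 21.9 to 48.2 FPKM (1.08 ± 0.14). Fabp7, the brain form of the carriers, had at most 1 read in a saline library and 38 to 112 reads in the LPS libraries. Cav1, the coat protein of caveolae, fell from 656 to 266 FPKM (-1.34 ± 0.23), and Slc27a3, of the fatty acid transport protein family, from 3.81 to 0.95 FPKM (-1.30 ± 0.11). With scaling on the endothelial list Cav1 was at -0.61 and Slc27a3 at -0.82, and both passed. Fabp1, the liver form, had 1 to 38 reads in the saline group and at most 4 in the LPS group, and fell by 1.28 on the log2 scale. Fabp1 is also in the alveolar macrophage list, where it is counted among the genes that fell.

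Pparg was the least abundant of the 8 genes in the saline group. It was at 2.20, 0.54, 0.99 and 0.50 FPKM in saline 1 to 4, from 29 to 86 reads, and at 2.63, 4.30 and 4.76 FPKM at the lowest, median and highest of the LPS group, from 148 to 255 reads. The groups did not overlap, and saline 1 was the saline library nearest to the LPS group. It rose by 1.36 ± 0.22 on the log2 scale (SE, limma adjusted p = 0.000415), and Pparg passed in every setting tried. The mean was 3.88 times higher in the LPS group, and 6.07 times without saline 1, where the log2 fold change was 1.60.

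Of 21 partners and upstream factors of PPARγ, 17 passed the filter, and 6 rose, 6 fell and 5 did not pass, where 29.5% of all genes rose and 23.7% fell. On total reads 5 were higher and 8 lower, and on the endothelial list 7 and 1. Cebpb and Cebpd, which act before Pparg when preadipocytes become adipocytes, rose from 43.5 to 495 FPKM and from 55.6 to 141 FPKM, by 4.29 ± 0.61 and 1.84 ± 0.52 on the log2 scale. Saline 1 carried both saline means, at 135 and 155 FPKM, and without it these were 13.0 and 22.6 FPKM and the log2 fold changes 5.12 ± 0.30 and 2.52 ± 0.27. Nr1h3, the liver X receptor LXRα, rose from 5.99 to 58.7 FPKM (3.06 ± 0.24). Meox2 and Tcf15, factors that in heart endothelium are known to promote Cd36 and Lpl, fell by 0.82 ± 0.23 and 1.01 ± 0.20 on the log2 scale, and with scaling on the endothelial list were at -0.40 and -0.49 and did not pass. Foxo1, a factor of endothelial quiescence and metabolism, fell from 12.7 to 4.80 FPKM (-1.25 ± 0.11), and passed at -0.60 with scaling on the endothelial list. Rxra, which encodes the binding partner of PPARγ and was named after its values were seen, was at -0.29 (adjusted p = 0.016), and scaling on the endothelial list turned it to 0.40.

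Of 15 other genes known as PPAR targets, 8 passed the filter and 2 of them rose, with none lower, a share near the 29.5% of all genes called higher. Plin2, which coats lipid droplets, rose from 15.7 to 151 FPKM (log2 fold change 3.17 ± 0.19), and Acaa1a, a peroxisomal thiolase, from 21.3 to 31.4 FPKM (0.51 ± 0.17). Acaa1a did not pass without saline 1 (adjusted p = 0.053), with total reads (0.31, adjusted p = 0.113) or with quantile normalization (0.13, adjusted p = 0.478). Pdk4, which holds back glucose oxidation and is a common readout of PPAR activity, was at 0.20 ± 0.41 and did not pass (limma adjusted p = 0.698), while without saline 1 it was at 0.76 with an adjusted p of 0.0069. The median log2 fold change of the 8 targets was 0.05. Without saline 1 the counts were 3 higher and 1 lower, where 31.2% and 25.5% of all genes were called. On total reads they were 1 higher and 1 lower, and on the endothelial list 4 and 0, each against the background shares of that scaling.

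The next lists hold what becomes of fatty acids within the cell, storage in droplets or oxidation. Of 19 storage and release genes, all of which passed the filter, 9 rose, 3 fell and 7 did not pass, with 29.5% and 23.7% as the background. On total reads 6 were higher and 5 lower, and on the endothelial list 13 and 0, each against the background shares of that scaling. Dgat2, which makes triglyceride, rose from 1.84 to 27.3 FPKM (3.44 ± 0.39), G0s2, an inhibitor of triglyceride lipase, from 23.6 to 160 FPKM (2.56 ± 0.49), and Soat1, which esterifies cholesterol, from 2.38 to 7.39 FPKM (1.29 ± 0.14). Mgll, Lpin1 and Lpin2, of lipid breakdown and synthesis, fell by 0.69, 0.54 and 0.79 on the log2 scale, and with scaling on the endothelial list were at 0.01, -0.01 and -0.13 and did not pass. Of 21 oxidation genes 19 passed the filter, and 11 rose, 1 fell and 7 did not pass, with a median log2 fold change of 0.38. Acads, Slc25a20 and Acadl rose by 1.23, 1.09 and 1.03 on the log2 scale, and Hadh fell by 0.40, which scaling on the endothelial list turned to 0.25. Against the 11 higher stands the background of 29.5%. With scaling on total reads the oxidation counts were 8 higher and 3 lower (background 23.1% and 31.2%), and with scaling on the endothelial list 16 higher and 0 lower (background 48.5% and 5.22%).

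Of 7 genes by which VEGF-B, apelin and valine metabolites are known to steer endothelial fatty acid uptake, none rose and 3 fell, against 29.5% higher and 23.7% lower of all genes. Aplnr, the apelin receptor of general capillary ECs, fell from 115 to 7.32 FPKM (log2 fold change -3.84 ± 0.24), and Nrp1 and Flt1, receptors for VEGF-B, fell by 1.42 and 1.13 on the log2 scale. With scaling on the endothelial list Aplnr at -3.15 and Nrp1 at -0.71 passed, and Flt1 at -0.41 did not. The general capillary list, which holds Gpihbp1 and Aplnr, had 4 of 6 genes lower, and the aerocyte list had 4 of 6 lower. With scaling on the endothelial list 3 of 6 and 4 of 6 genes were lower, and the 7 genes above gave 2 higher and 2 lower.

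**Figure D4:**
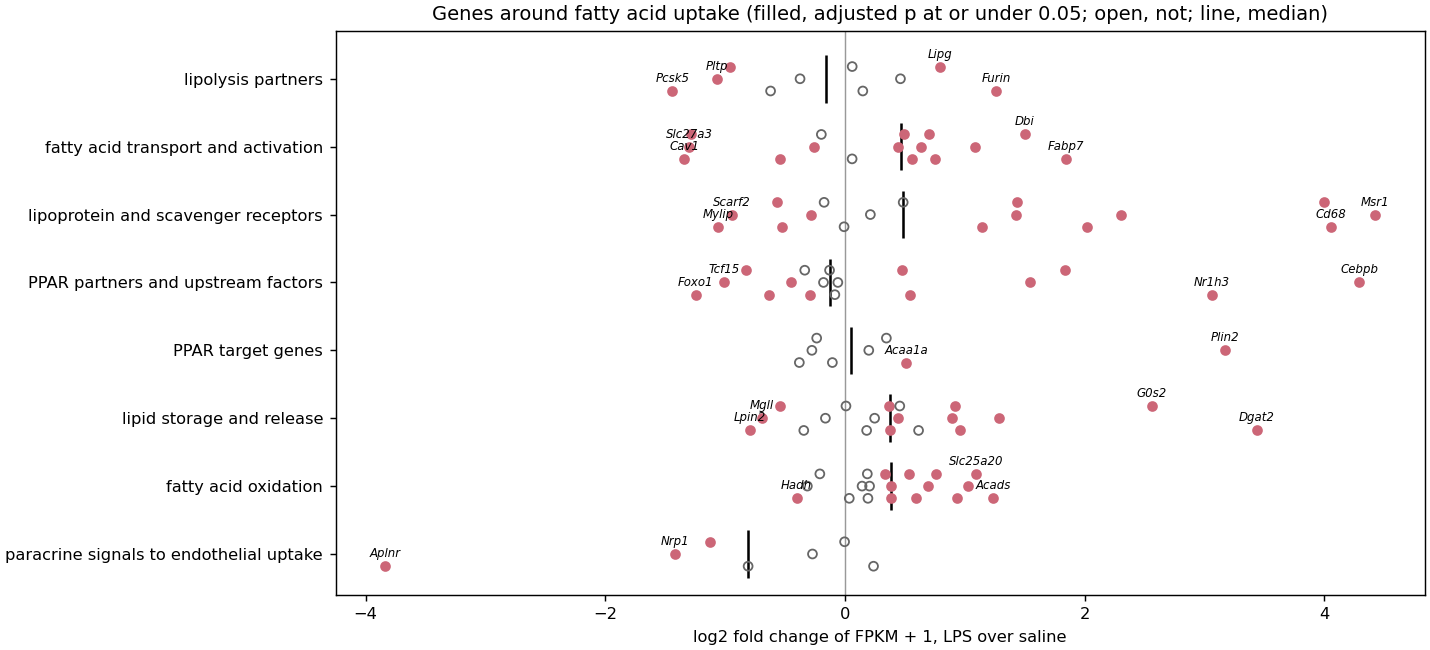
Log2 fold change of LPS over saline, on the log2(FPKM + 1) scale, for the tested genes of 8 lists around fatty acid uptake; filled points passed an adjusted p of 0.05, open points did not, and lines mark the medians. Most filled points of the oxidation and storage lists lie above 0 (on total reads, 8 higher and 3 lower for oxidation and 6 and 5 for storage), and those of the paracrine list lie below it, where 2 genes were higher and 2 lower once libraries were scaled on endothelial genes.

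Within the LPS group the libraries did not hold the 8 genes in one order. LPS 1 was the lowest for Cd36, Angptl4 and Vldlr and the highest for Fabp5, and it also had the lowest endothelial list and the highest leukocyte list of the group. LPS 6 was the highest for Cd36 and Vldlr and the lowest for Fabp4, Fabp5 and Pparg, with the lowest leukocyte, monocyte and macrophage, and neutrophil lists. The spread from lowest to highest LPS library was 2.07 times for Cd36, 2.70 times for Fabp5 and 1.21 times for Scarb1.

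Across the 10 libraries of saline and LPS mice, the genes whose log2(FPKM + 1) ran most like each of the 8 were sought among the 7765 genes whose mean reached 5 FPKM. The libraries form a pair of groups, so the correlations follow the group difference to a large part and are given as a description. Tmem47, Lmf2 and Pros1 were most like Cd36, with Pearson r of 0.99, 0.99 and 0.98. Lmf2 belongs to the family of the lipase maturation factor and Pros1 encodes protein S. Those most like Fabp5 were Eno1, Capg and Dok2, each with r of 1.00, of which Eno1 is a glycolytic enzyme, and those most like Pparg were Cebpb, Slpi and Mcl1, each with r of 0.99. Gm12715, Ube2d2a and Anxa7 led for Lpl at 1.00, 0.99 and 0.99, and Qsox1, Depp1 and Trpv4 led for Angptl4 at 0.98, 0.98 and 0.97. For Vldlr the first was 1190002N15Rik at 0.99. The highest r was lower for Scarb1 (0.95, Cyp2b10) and for Fabp4 (0.89, 1500011B03Rik), the genes whose groups overlapped most.

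The second experiment compared pulmonary ECs with and without endothelial Fgfr1, all after LPS, to look for what acts downstream of this receptor. Fgfr1 itself was at 2.90, 2.91 and 2.60 FPKM in the Fgfr1 loxP/loxP libraries and at 0.68, 1.41 and 1.15 FPKM in the Fgfr1 iΔEC/iΔEC libraries. The groups did not overlap, and each library went with its label. Its log2 fold change was -0.88 ± 0.16 (SE), with an unadjusted p of 0.00103 and a limma adjusted p of 0.962 over 14945 genes. By limma 0.0% of genes were called in either direction, and 661 genes (4.42%) had an unadjusted p under 0.05. None of the 8 uptake genes passed, and their adjusted p ran from 0.962 to 0.969. Libraries with the same number were related in their deviations, and a fit that held the number as a block called no gene either, with 7.72% of genes at an unadjusted p under 0.05.

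Lpl was at 194, 140 and 84.4 FPKM in Fgfr1 loxP/loxP 1 to 3 and at 233, 232 and 156 FPKM in Fgfr1 iΔEC/iΔEC 1 to 3. It was higher in 3 of 3 same-numbered pairs, a direction that 17.8% of all genes share, while the groups overlapped. On the log2 scale Lpl differed by 0.62 ± 0.33 (limma adjusted p = 0.962, and 0.582 with the block). Cd36 was at 525, 304 and 470 FPKM against 751, 429 and 549 FPKM, again higher in 3 of 3 pairs, with a log2 fold change of 0.41 ± 0.31. Gpihbp1 (0.48 ± 0.30), Scarb1 (0.19 ± 0.17), Pecam1 (0.27 ± 0.21) and Cdh5 (0.50 ± 0.23) were higher in 3 of 3 pairs too, and the groups of Cdh5 did not overlap, as for 6.02% of all genes in this direction. The endothelial list as a whole had a median log2 fold change of 0.29 in this comparison, and with scaling on it the values were 0.37 for Lpl, 0.16 for Cd36 and -0.05 for Scarb1.

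Fabp5 was at 14.3, 31.3 and 20.6 FPKM in Fgfr1 loxP/loxP 1 to 3 and at 10.6, 20.2 and 18.9 FPKM in Fgfr1 iΔEC/iΔEC 1 to 3, lower in 3 of 3 pairs, as were 12.9% of all genes, with a log2 fold change of -0.37 ± 0.34. Fabp4 was at 59.4, 64.7 and 14.4 FPKM against 23.1, 34.0 and 17.0 FPKM (-0.67 ± 0.58), lower in 2 of 3 pairs. Angptl4 was at 26.0, 23.2 and 7.15 FPKM against 21.9, 29.8 and 15.8 FPKM (0.38 ± 0.48). With 1 library left out, the values ran from 0.31 (without Fgfr1 loxP/loxP 3) to 0.90 (without Fgfr1 loxP/loxP 1) for Lpl and from 0.18 (without Fgfr1 loxP/loxP 2) to 0.61 (without Fgfr1 iΔEC/iΔEC 2) for Cd36. They ran from -1.35 (without Fgfr1 loxP/loxP 3) to -0.30 (without Fgfr1 loxP/loxP 2) for Fabp4 and from -0.64 (without Fgfr1 loxP/loxP 1) to -0.096 (without Fgfr1 loxP/loxP 2) for Fabp5. In both Fabp4 and Angptl4 the third Fgfr1 loxP/loxP library was far below the others of its group. Pparg was at 2.65, 3.69 and 5.08 FPKM against 1.89, 4.35 and 3.70 FPKM (-0.17 ± 0.28). Vldlr was at 0.73, 0.67 and 0.63 FPKM against 0.45, 0.62 and 0.57 FPKM, the one gene of the 8 whose groups did not overlap, as 4.09% of all genes did in this direction, at a log2 fold change of -0.12 ± 0.13. With the replicate number as block the SEs were smaller, 0.16 for Lpl, 0.16 for Cd36 and 0.12 for Fabp5, with unadjusted limma p of 0.0136, 0.0501 and 0.0327. None of the 8 passed after adjustment over all genes in either fit.

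The ratios within a library did not separate the genotypes either. Fabp5 to Fabp4 differed by 0.29 on the log2 scale and Angptl4 to Lpl by -0.21, with exact two-sided permutation p of 0.9 and 0.6, where 0.1 is the smallest that 3 against 3 libraries allow. The leukocyte list had a median log2 fold change of -0.21 and the neutrophil list of -0.48 in Fgfr1 iΔEC/iΔEC over Fgfr1 loxP/loxP, with 0 of 6 and 0 of 8 genes called by limma. The alveolar type 2 epithelial list had the largest median of the cell type lists in size, -0.95, with 0 of 8 genes called. Its summed FPKM, led by Sftpc, was 794, 1315 and 1730 in Fgfr1 loxP/loxP 1 to 3 and 368, 972 and 549.6 in Fgfr1 iΔEC/iΔEC 1 to 3, lower in 3 of 3 pairs, and its part in the values above was not tested.

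**Figure D5:**
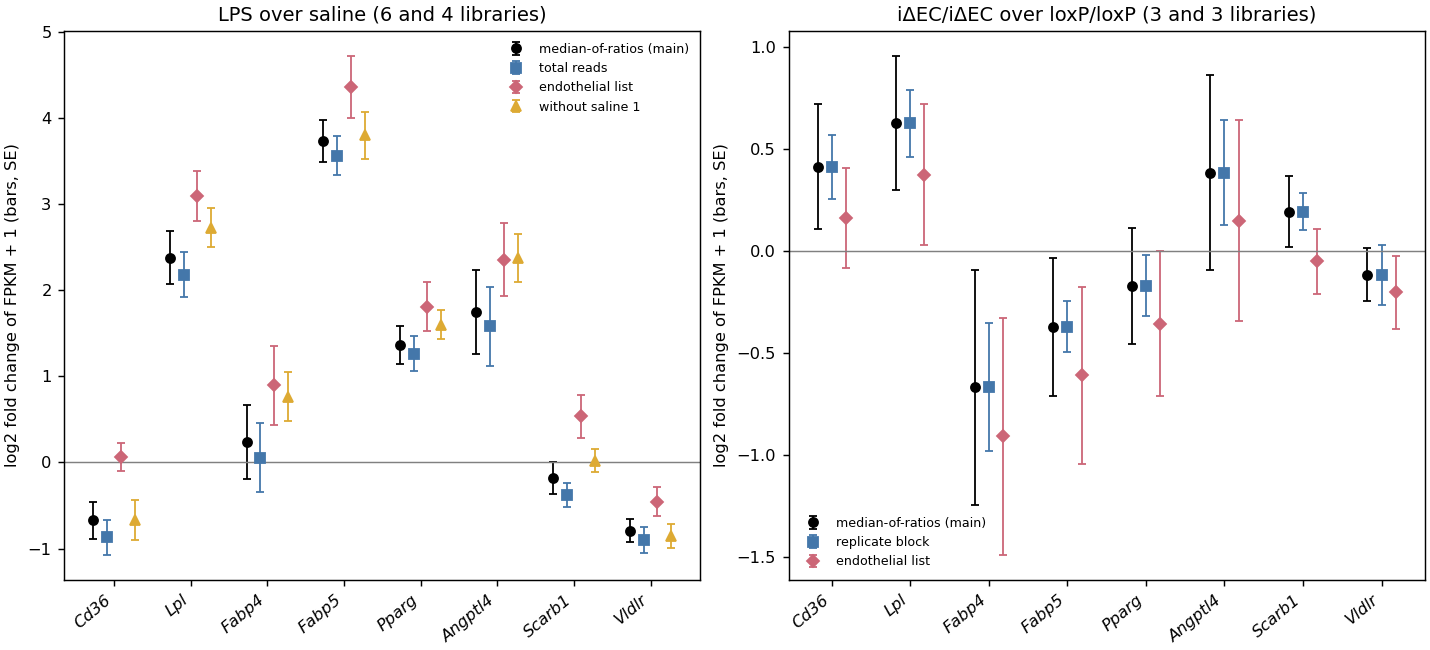
Log2 fold change with SE of the 8 genes on the log2(FPKM + 1) scale, at left for LPS over saline and at right for Fgfr1 iΔEC/iΔEC over Fgfr1 loxP/loxP, under several settings. Lpl, Fabp5, Pparg and Angptl4 lie above 0 and Vldlr below 0 under all 4 settings at left, while Cd36 at -0.67 and Scarb1 at -0.18 lie above 0 with scaling on the endothelial list.

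By mean FPKM the order in the saline group was Cd36 (776), Scarb1 (52.9), Lpl (39.0), Fabp4 (13.4), Angptl4 (7.69), Fabp5 (3.93), Vldlr (1.56) and Pparg (1.06). Without saline 1 the saline means were 27.4 for Lpl, 7.11 for Fabp4, 3.17 for Angptl4, 3.71 for Fabp5 and 0.67 for Pparg, so that Fabp5 came before Angptl4. In the LPS group it was Cd36 (499), Lpl (193), Fabp5 (67.5), Scarb1 (44.8), Angptl4 (19.9), Fabp4 (12.5), Pparg (4.09) and Vldlr (0.47). Cd36 was above 99.9% of tested genes in the saline group and 99.5% in the LPS group, and Fabp5 moved from above 43.5% to above 94.1%. These orders and shares rest on the gene lengths behind the FPKM values. Neighbours that overlapped between libraries were Scarb1 and Lpl, Lpl and Fabp4, Fabp4 and Angptl4, Angptl4 and Fabp5, and Vldlr and Pparg in the saline group, and Fabp5 and Scarb1, and Angptl4 and Fabp4 in the LPS group. In the Fgfr1 loxP/loxP group given 2 mg/kg LPS, in a table normalized separately, the order was Cd36 (433), Lpl (139), Fabp4 (46.2), Scarb1 (25.9), Fabp5 (22.0), Angptl4 (18.8), Pparg (3.81) and Vldlr (0.68), and the libraries of Fabp4 and Scarb1, Scarb1 and Fabp5, and Fabp5 and Angptl4 overlapped.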

How the data were processed

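Bulk RNA-seq of 16 libraries was deposited as FPKM per gene, in a table for the saline and LPS groups and a table for the Fgfr1 loxP/loxP and Fgfr1 iΔEC/iΔEC groups. The authors aligned reads to GRCm38 (mm10) with HISAT2 2.0.5, counted them with featureCounts 1.5.0-p3 and made the deposited FPKM values from the counts and gene lengths. The scaling is not the library total: 1 FPKM per kb was worth 13.2 reads in saline 1 and 22.1 in saline 2, and size factors by the median of ratios fit the values almost exactly. Strandedness, the treatment of reads with several matches and the annotation release are not given in the sources used here. The tables were normalized separately, so tests were run only within a table.

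Whole reads were recovered from 100% of the FPKM values, within 0.05 of a whole number. Reads on genes were 13478726 to 18807007 in the saline group, 17840221 to 19043015 in the LPS group, 15969575 to 17002788 in the Fgfr1 loxP/loxP group and 16642177 to 16943522 in the Fgfr1 iΔEC/iΔEC group, and 3 reads were taken as the floor.

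FPKM values were rescaled by the median of ratios, which changed no library by over 0.1819%, and log2(FPKM + 1) of the genes whose mean reached 0.5 FPKM was fitted with limma 3.58.1 (R 4.3.3, trend), with Benjamini-Hochberg adjustment over all tested genes and a threshold of 0.05. Ratios within a library were compared by exact permutation tests with scipy 1.17.1. No 2 libraries were copies. Same-numbered libraries of the second table deviated together (correlations of 0.248, 0.178 and 0.187), so their numbers were taken to pair them, from the data and not from the labels. Named genes were the 8 genes, 9 others fixed by role, and up to 3 genes a list in each direction among those that passed. Genes most like each of the 8 and the most abundant gene of a marker list were named as well. Lrp8, Siglecf, Adipoq, Ms4a7, Apoc2 and Rxra were named outside these rules. The genes and lists were chosen with earlier results of these data known. Alternatives were other scalings, filters, pseudocounts, a replicate block, limma-voom on the recovered reads (4386 genes higher and 3629 lower with LPS) and each library left out. The endothelial scaling without saline 1, the lists and named genes under other settings, the share of genes called under each, and saline means without saline 1, were added after seeing the data.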

Additional observations from a re-analysis of the deposited data

Results flagged for a closer look

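In each group of 4 or 6 libraries, the 8 genes, the cell type lists and the ratios were searched for a single library lying far outside its group, and 5 of 48 searches found one, where chance gives about 2.4. Lpl was at 73.8 FPKM in saline 1 against 26.3 to 28.1 in the other saline libraries. Scarb1 was at 51.6 FPKM in LPS 2 against 42.5 to 45.7 in the other LPS libraries. The mean log2(FPKM + 1) of the monocyte and macrophage list was 3.79 in saline 1 against 2.54 to 2.67. That of the aerocyte list was 3.45 in LPS 1 against 4.45 to 4.97, and that of the alveolar type 2 epithelial list was 4.71 in LPS 1 against 5.43 to 5.86. The part of these libraries in the results was examined by leaving each out.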

How the results depend on the processing

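Lpl, Fabp5, Pparg and Vldlr kept their direction and call with LPS under every alternative that gave a value, and Vldlr was not tested under the filter of 2 FPKM. Scaling on the endothelial list gave 7285 genes higher and 784 lower, and without saline 1 as well 6760 and 824, while a log2 fold change of at least 1 in size left 1768 and 1011. Leaving out single libraries gave 3815 to 4606 higher and 2890 to 3766 lower. Cd36 was at 0.060 with endothelial scaling, 0.047 without saline 1 as well, -0.67 with no filter (adjusted p = 0.0933) and -0.76 to -0.55 with single libraries left out. Scarb1 passed as lower at -0.38 with total reads (limma adjusted p = 0.0415) and at -0.64 with quantile normalization. It was at 0.53 with endothelial scaling, and passed as higher at 0.72 without saline 1 as well (limma adjusted p = 0.0285). With single libraries left out it was at -0.32 to 0.020. Fabp4 ran from -0.095 to 0.77 with single libraries left out, and was at 1.39 with endothelial scaling without saline 1. Leaving out single libraries of the Fgfr1 experiment gave -0.36 to 0.093 for Pparg, -0.17 to 0.70 for Angptl4, -0.31 to 0.98 for the Fabp5 to Fabp4 ratio and -0.48 to 0.0024 for the Angptl4 to Lpl ratio, and endothelial scaling gave -0.053 for Scarb1. No gene was called there in any of 17 alternatives. The cause of these changes was not tested.

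Same-numbered saline and LPS libraries did not deviate together (correlations of 0.097, -0.162, -0.209 and -0.117), so they share only a number. With the replicate block 3438 genes were higher and 2561 lower, Cd36 was at -0.75 (adjusted p = 0.106), Angptl4 at 1.70 (adjusted p = 0.0602) and the Fabp5 to Fabp4 ratio at 3.72 (exact permutation p = 0.125, the smallest that 4 pairs allow). The block changed no call in the Fgfr1 experiment, where the smallest adjusted p was 0.306 with it and 0.742 without it. Depth limits Pparg and Vldlr most, at 29 to 86 reads in the saline group and 62 to 142 reads in the LPS group.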
